A study of Mus musculus with 72 samples.

Results

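Transcripts of 5 red cell genes were followed in RNA-seq counts from mouse liver and suprachiasmatic nucleus (SCN), the seat of the body's master clock in the hypothalamus. The genes were the adult alpha globins Hba-a1 and Hba-a2, the adult beta globins Hbb-bs and Hbb-bt, and Alas2, the red cell form of the enzyme that starts heme synthesis. They were taken by symbol, and all 5 were found among the 22823 genes of the liver table and among the 15759 genes of the SCN table. Per the labels, C57BL/6 mice aged 8 to 12 weeks were given free access for 11 days to food without methionine and choline (the MCD diet) or to a control food matched in energy. The first 10 days were spent under light-dark cycles and the 11th in constant darkness, when tissue was taken at 6 circadian times (CT), CT0, CT4, CT8, CT12, CT16 and CT20. This gave 24 groups, 12 per tissue, with 3 libraries in each: replicates 1 and 2 were males and replicate 3 was a female. The protocol text names only males, and the sample labels, which name 12 females per tissue, were followed. All mice carry the same strain label, with no other allele or treatment named, and were housed singly.

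Hemoglobin is a tetramer of alpha and beta chains, each holding a heme, and red cells make both chains in matched amounts. Reticulocytes, the youngest circulating red cells, have lost their nucleus but keep globin and Alas2 mRNA for a time, so that blood left in a tissue carries these transcripts. The adult liver is no longer a main site of red cell formation. Other cells make heme with Alas1, the housekeeping form of the enzyme. In these bulk samples, fewer red cells and less RNA per red cell cannot be told apart, and the blood content of the pieces was not measured.

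The 2 alpha genes lie on chromosome 11 of build GRCm38, with Hba-a1 at chr11:32283511-32284465 and Hba-a2 at chr11:32296489-32297298, both on the plus strand (GENCODE M21 annotation). The submitters' processing notes name build GRCm39, and the positions here are those of the GRCm38 reference. Hbb-bs lies at chr7:103826534-103828096 and Hbb-bt at chr7:103812524-103813996, both on the minus strand. Alas2 lies at chrX:150547375-150570638 on the plus strand, and Apex2 and Mir3620 overlap it on the minus strand. The coding sequences of Hba-a1 and Hba-a2 were identical in 428 of 429 bases, with a shared stretch of 380 bases. Those of Hbb-bs and Hbb-bt were identical in 443 of 444 bases, with a shared stretch of 416 bases. How the authors' counting shared reads between such copies is not stated in the labels or file headers, and the split within each pair is uncertain. The sum of a pair is less exposed to it.

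Promoters are shown because the 4 globins moved together in the counts and Alas2 did not always move with them. RefSeq sequences of build GRCm38.p6 were found for all 5 genes. The 250 bases before the RefSeq start were searched on both strands for AGATAA or the same letters with T or G as the first base (the core of GATA factor sites), for CACCC (the core bound by Klf1 and related factors), for CCAAT and for TATAA. Capitals mark the matches, and a match on the other strand reads as its complement. The windows were chr11:32283422-32283671 on the plus strand for Hba-a1, chr7:103827929-103828178 on the minus strand for Hbb-bs, chr7:103813924-103814173 on the minus strand for Hbb-bt and chrX:150547167-150547416 on the plus strand for Alas2.
Hba-a1: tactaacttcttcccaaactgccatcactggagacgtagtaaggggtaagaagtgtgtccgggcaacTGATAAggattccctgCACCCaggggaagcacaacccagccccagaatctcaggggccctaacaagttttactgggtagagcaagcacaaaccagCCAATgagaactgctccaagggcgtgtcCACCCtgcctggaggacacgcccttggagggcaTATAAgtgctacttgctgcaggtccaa
Hbb-bs: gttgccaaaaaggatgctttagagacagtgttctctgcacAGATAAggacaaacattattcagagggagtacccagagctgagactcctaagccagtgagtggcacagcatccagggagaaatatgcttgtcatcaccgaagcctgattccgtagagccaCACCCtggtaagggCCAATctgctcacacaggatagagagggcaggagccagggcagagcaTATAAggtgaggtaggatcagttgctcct
Hbb-bt: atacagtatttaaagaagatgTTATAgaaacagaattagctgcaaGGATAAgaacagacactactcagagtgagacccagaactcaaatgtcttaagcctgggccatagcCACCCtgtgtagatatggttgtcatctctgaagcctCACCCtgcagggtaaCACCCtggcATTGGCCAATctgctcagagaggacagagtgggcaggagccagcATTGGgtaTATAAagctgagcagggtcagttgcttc
Alas2: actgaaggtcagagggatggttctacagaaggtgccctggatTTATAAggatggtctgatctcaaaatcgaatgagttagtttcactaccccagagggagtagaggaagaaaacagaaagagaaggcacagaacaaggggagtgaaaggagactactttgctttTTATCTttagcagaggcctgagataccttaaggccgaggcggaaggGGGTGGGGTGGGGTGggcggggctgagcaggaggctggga
The Hba-a2 window, chr11:32296242-32296491, shared a stretch of 247 of its 250 bases with that of Hba-a1 and is not printed. The GENCODE models of all 5 genes begin inside these windows.

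Each of the 5 promoters held 1 match to the GATA letters. It began 183 bases before the start in Hba-a1, 210 bases in Hbb-bs, 205 bases in Hbb-bt and 86 bases in Alas2. Such a match was present in 21.6% of the 32851 promoters in the table. CACCC was matched 2 times in Hba-a1, 1 time in Hbb-bs and 3 times each in Hbb-bt and Alas2, and was present in 52.0% of all promoters. CCAAT was matched in the 4 globin promoters and not in that of Alas2, against 33.8% of all promoters. TATAA was matched in all 5 promoters, against 22.8%. It began 27 to 30 bases before the start in one match of each globin promoter, while the Alas2 matches began 207 and 208 bases before the start. The matches describe the letters and are not evidence of binding.

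Liver libraries held 52.6 to 86.7 M counts and SCN libraries 23.3 to 79.8 M. The 4 globins together took a median of 0.0142% of the counts in liver and 0.0147% in SCN. Libraries were checked against their labelled tissue. The summed level of 5 hepatocyte genes was at least 66328 CPM (counts scaled to a common library total) in liver. In SCN 2 of the 5 were listed, with a sum of at most 27.3 CPM. All 6 SCN neuron genes were listed in SCN, where their sum was 1564 to 4081 CPM. In liver 2 of these 6 were listed, with a sum of 7.31 to 473 CPM on control and 31.5 to 332 CPM on MCD. The neuron list was thus not absent from liver, and its sums in the tissues did not overlap. The totals were adjusted by the TMM method within 1 tissue, so levels were set side by side across tissues only with that limit. Nothing in the labels says that replicates were handled separately after the mice were killed, and p-values measure the spread between these libraries.

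In liver, all 4 globins were lower on the MCD diet, by 1.69 to 1.95 times, while Alas2 was lower in males and higher in females. Hbb-bs, the more abundant beta globin, was at 44.7, 69.7 and 124 CPM on the control diet (lowest, median and highest of 18 libraries). On MCD it was at 24.7, 35.2 and 71.2 CPM. The ranges overlapped, and 12 of the 18 MCD libraries lay below the lowest control library. Averaged over the times and adjusted for sex, the log2 difference of MCD minus control was -0.94 ± 0.14 (SE; edgeR quasi-likelihood test, adjusted p = 6.12e-06). In this comparison 46.6% of the 20249 genes tested were called at an adjusted p under 0.05, and 21.2% were called lower, against 4 of the 5 members.

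Hbb-bt was at 13.3, 30.2 and 54.5 CPM on control and at 11.1, 15.4 and 32.2 CPM on MCD, and 6 MCD libraries lay below the lowest control library. Its log2 difference was -0.97 ± 0.17 (edgeR adjusted p = 3.33e-05). Hbb-bt is the less abundant beta gene, and its MCD values also overlapped the control range from below.

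Hba-a1 was at 29.2, 49.2 and 87.3 CPM on control and at 19.7, 28.4 and 70.5 CPM on MCD. Its log2 difference was -0.76 ± 0.16 (edgeR adjusted p = 2.52e-04), and 10 MCD libraries were below the control range. Hba-a2 was at 25.5, 39.5 and 78.4 CPM on control and at 16.4, 23.2 and 41.9 CPM on MCD. Its log2 difference was -0.80 ± 0.16 (edgeR adjusted p = 1.49e-04), and 12 MCD libraries were below the control range.

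Summed over the 4 globins, the control libraries ran from 120 to 344 CPM with a median of 191 CPM, and the MCD libraries from 75.2 to 214 CPM with a median of 102 CPM. No MCD library was above the control range and 13 of 18 were below it. The MCD mean was the lower one at 6 of 6 times for each of the 4 globins. The sum of TMM-scaled counts is relative to the other genes: with plain library totals in place of TMM, the median log2 difference of all genes moved from 0.02 to 0.27, and the share of calls that were higher rose from 5130 of 9426 to 10633 of 12173. The 4 globins were called lower under either scaling.

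**Figure D1:**
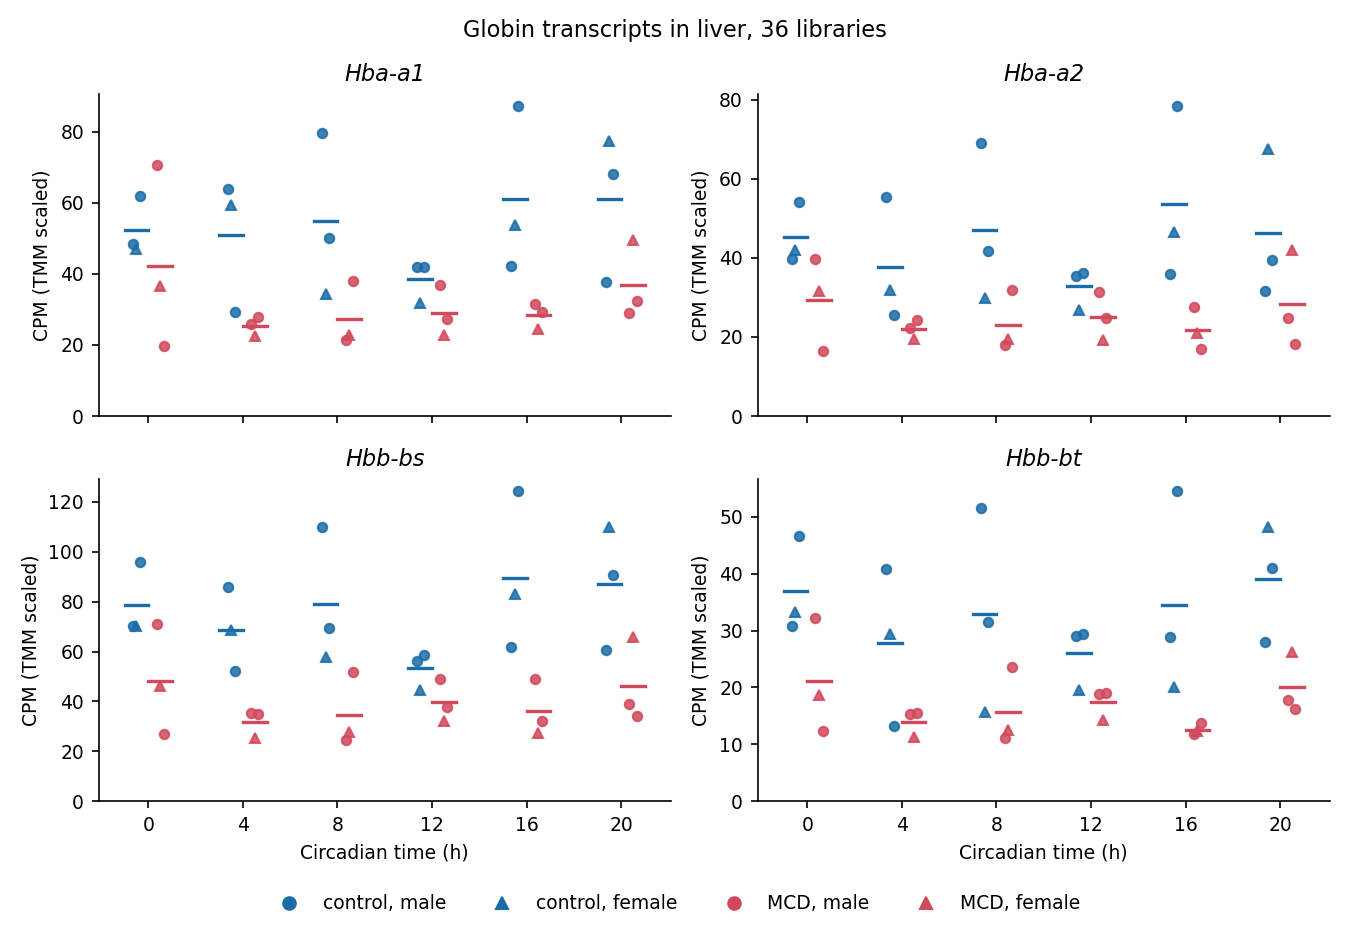
Levels of the 4 globins in the 36 liver libraries, in TMM-scaled CPM, by circadian time in hours. Points are libraries by diet and sex and horizontal lines are the means of the 3 libraries of a group; the MCD mean is the lower one at all 6 times in each panel.

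At single times the 3 libraries per group gave fewer calls. At CT16 Hbb-bs was at 61.6, 124 and 82.9 CPM in the control replicates 1, 2 and 3, and at 49.1, 32.2 and 27.2 CPM on MCD. There, Hbb-bs (log2 difference -1.32 ± 0.35), Hbb-bt (-1.42 ± 0.41) and Hba-a2 (-1.29 ± 0.39) were called, with edgeR adjusted p of 0.0146, 0.0245 and 0.0279, against 12.5% of all genes tested. At CT4 Hbb-bs was at 52.1 to 85.8 CPM on control and 25.2 to 35.4 CPM on MCD (log2 difference -1.12 ± 0.35, edgeR adjusted p = 0.0274), and it was the only member called, against 18.2% of all genes. None of the members was called at CT0, CT8, CT12 or CT20, where 12.6%, 1.3%, 15.2% and 11.3% of all genes were called. An unadjusted edgeR p under 0.05 was met by 4 members at CT8, against 2550 of the 20249 genes tested. At CT20 it was met by 2 members, against 5356 genes, and at CT0 and CT12 by 0. Hba-a1 and Hbb-bs at CT12 had log2 differences of -0.41 ± 0.38 and -0.43 ± 0.35. The CT8 controls include a male with a TMM factor of 1.18, against a control median of 0.894. Its globin share, 0.0365%, was the highest of the liver libraries. Without this library edgeR called 5 member-time pairs in place of 4. These single-time calls moved with the tool and the libraries used. DESeq2 called 9 member-time pairs in place of 4. Without replicate 1 only Hbb-bs at CT16 was called (edgeR adjusted p = 0.0369). Without replicate 2 no pair was called, and without replicate 3 none of these 4 was kept (edgeR adjusted p = 0.077 to 0.18), while 2 other pairs were called.

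The liver globins had no 24 h rhythm that passed the test. Peak-to-trough log2 amplitudes from the 24 h component were 0.33 to 0.49 on control and 0.31 to 0.59 on MCD, and the lowest edgeR adjusted p of any globin was 0.337. Alas2 had amplitudes of 0.31 and 0.57 with adjusted p of 0.908 and 0.678 in the same edgeR fit. None of the 5 members was called on either diet, against 17.8% of all genes on control and 28.2% on MCD, nor for a difference in rhythm between the diets, where 4.87% of all genes were called. At an unadjusted p under 0.05 the count of members was also 0 in each of these 3 tests, against 31.5%, 38.7% and 19.9% of all genes, and DESeq2 called none.

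The globins moved together from library to library. The sum of the alpha genes and the sum of the beta genes, as log2 CPM, had r = 0.98 and rho = 0.98 over the 36 liver libraries (permutation p = 1e-05 for each, the smallest that the resamples can give; adjusted over 16 relations 2.29e-05 and 2.67e-05). The correlation was 0.98 without the 2 libraries farthest from the median, 0.98 within control and 0.97 within MCD. After subtraction of the group and sex terms, correlations among the 4 globins ran from 0.84 to 0.95. The spread left after those terms was 0.46 to 0.53 log2 units (SD), larger than in 88.8% to 92.4% of the genes of at least 1 CPM, whose median was 0.20.

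Alpha counts fell less than beta counts on MCD. The ratio of the alpha sum to the beta sum had a geometric mean of 0.884 on control and 1.01 on MCD (log2 difference 0.18; two-sided permutation test with 100000 resamples, p = 2e-05, the smallest these can give; adjusted over 8 ratios, p = 1.6e-04). The control libraries ran from 0.782 to 0.974 and the MCD libraries from 0.906 to 1.15, so the ranges overlapped. In males alone the log2 difference was 0.18. With sums of the deposited exon-bin counts in place of the gene table the difference was 0.29 and was not called (adjusted p = 0.609).

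Ratios within a pair showed a split that was not between the diets. Hba-a2 stood at 0.820 to 0.908 of Hba-a1 in 31 liver libraries and at 0.538 to 0.577 in the other 5, of which 3 were MCD and 2 control. Hbb-bt stood at 0.386 to 0.515 of Hbb-bs in 32 libraries and at 0.240 to 0.271 in the other 4, of which 1 was MCD and 3 control. No library was in both low sets. In the low Hba-a2 libraries the exon bins of Hba-a1 summed to 46.7% to 50.9% of its gene count, against 19.7% to 26.6% in the others. For the alpha pair the SCN table had no such gap, with Hba-a2 at 0.799 to 0.943 of Hba-a1.

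**Figure D2:**
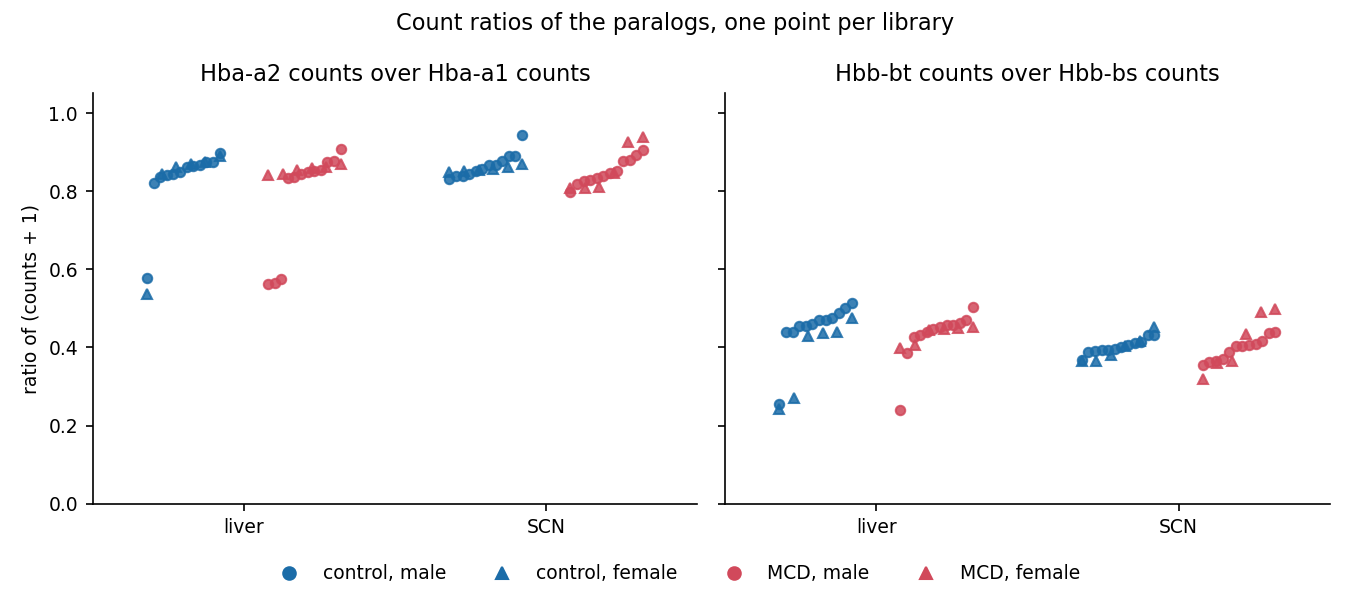
Ratio of Hba-a2 to Hba-a1 and of Hbb-bt to Hbb-bs, each as counts + 1, in each of the 36 liver and 36 SCN libraries. In liver, 5 libraries lie at 0.538 to 0.577 for the alpha pair and 4 lie at 0.240 to 0.271 for the beta pair, apart from the rest.

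Exon bins held only part of the globin counts. Their sum was a median of 23.1% of the gene count for Hba-a1, 7.06% for Hba-a2, 77.5% for Hbb-bs and 9.57% for Hbb-bt over 34 liver libraries, against 103% for Alas2. The low shares stand beside the near-identity of the pairs given above, and their cause was not tested. With exon-bin sums in place of the gene table, Hba-a1 missed the threshold in the liver diet comparison (edgeR adjusted p = 0.0523), and the other 3 globins were called.

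Alas2 in liver depended on sex and on diet together. In control males it was at 52.0, 103 and 126 CPM (lowest, median and highest of 12) and in control females at 7.21, 9.31 and 10.4 CPM (of 6), with no overlap. On MCD the males were at 17.0, 49.1 and 61.7 CPM, and 11 of the 12 control males lay above the highest of them. The MCD females, at 11.1, 23.8 and 24.8 CPM, all lay above all control females. Female values by time, from CT0 to CT20, were 9.08, 10.2, 10.4, 7.21, 9.28 and 9.34 CPM in the control group. In the MCD group they were 23.6, 24.8, 11.1, 20.7, 24.3 and 23.9 CPM. They rest on 456 to 690 counts per control library and 998 to 2100 per MCD library.

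The sex difference on control was a log2 value of -3.41 ± 0.25 for females minus males (edgeR adjusted p = 2.28e-10), a level 10.6 times lower in females. On MCD it was -1.09 ± 0.22 (edgeR adjusted p = 0.00436). These comparisons called 9.87% and 2.23% of all genes tested, and Alas2 was the only member called in either. The diet effect was -1.11 ± 0.17 in males (edgeR adjusted p = 1.16e-05) and 1.20 ± 0.24 in females (edgeR adjusted p = 6.36e-04). The 2 effects differed by 2.32 ± 0.30 (edgeR sex-by-diet term, adjusted p = 6.97e-05), a comparison in which 1.77% of all genes and 1 of 5 members were called. Without replicate 2, which leaves 1 male per group, the difference was 2.17 with an edgeR adjusted p of 0.0626, and the sex difference on MCD was -1.13 with an edgeR adjusted p of 0.12.

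Averaged over the design, the diet effect on Alas2 was -0.39 ± 0.27 and was not called (edgeR adjusted p = 0.25); without replicate 3, which leaves the males, it was -1.13 and called (edgeR adjusted p = 1.82e-04). Across diets, Alas2 was lower in females by a log2 value of -2.10 ± 0.31 (edgeR adjusted p = 4.31e-05), against 9.44% of all genes called. Apex2, on the opposite strand, had means of 6.90 and 4.96 CPM in control males and females and 8.14 and 7.46 CPM in MCD males and females. The Alas2 means were 98.9 and 9.26 CPM in control males and females and 46.2 and 21.4 CPM in MCD males and females. Without knowing whether counting used the strand, reads of the overlap cannot be assigned to 1 of the genes. Over 17 exon bins of Alas2, the share of its counts in a bin differed by at most 1.40 percentage points between control males and control females.

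**Figure D3:**
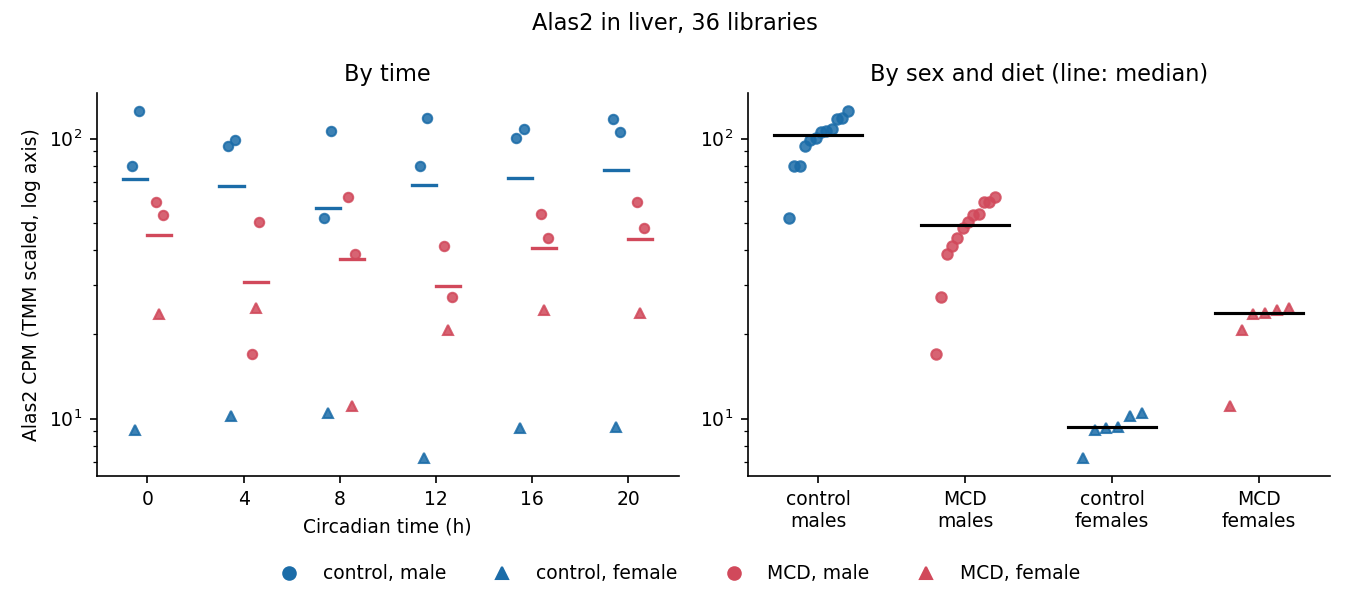
Alas2 in the 36 liver libraries, in TMM-scaled CPM, by sex and diet and by circadian time in hours. Points are libraries, on a log axis; lines are means of the 3 libraries of a group in the panel by time and medians in the panel by sex and diet; control females sit at 7.21 to 10.4 and MCD females at 11.1 to 24.8.

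For the globins no difference between the sexes in the diet effect passed the test. All 4 were called lower on MCD in males, with log2 differences of -0.75 to -1.05 and edgeR adjusted p of 0.00348 or less, against 39.6% of all genes called. Without replicate 2, Hba-a1 and Hba-a2 did not pass in males (edgeR adjusted p = 0.0905 and 0.0563), nor did Hba-a1 with exon-bin sums (edgeR adjusted p = 0.319). In females Hba-a1 (-0.78 ± 0.28), Hbb-bs (-0.97 ± 0.25) and Hbb-bt (-0.81 ± 0.29) were called, with edgeR adjusted p of 0.04, 0.00593 and 0.0457, and Hba-a2 was not (-0.68 ± 0.28, adjusted p = 0.0738), against 24.8% of all genes. The sex-by-diet term of the globins ran from -0.04 to 0.24 with SE of 0.31 to 0.36, and none was called. In females, the call for Hba-a1 was lost without any 1 of the 12 female libraries other than control CT8, control CT12 and MCD CT20, and that for Hbb-bt was kept without 16 of the 36 libraries in turn. The call for Hbb-bs was kept without each of the 36. With plain library totals Hba-a1 and Hbb-bt did not pass in females (-0.55 and -0.58, edgeR adjusted p = 0.16 and 0.17). Hba-a1 did not pass with exon-bin sums (adjusted p = 0.145 in the edgeR fit), nor Hbb-bt with limma-voom or without replicate 1 (adjusted p = 0.0633 and 0.0859). Hba-a2 was called in females by DESeq2 and with a term for the kind of library by its mt-Nd6 level (adjusted p = 0.038 and 0.0311). It was also called by edgeR without the MCD CT20 female (-0.91, adjusted p = 0.0216), and without the control CT20 female its difference was -0.42 (edgeR adjusted p = 0.286).

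In liver no relation of Alas2 to the globins passed the test. Per 1000 globin counts there were 168, 488 and 822 Alas2 counts in control males, 30.8, 50.5 and 75.8 in control females, 172, 461 and 820 in MCD males and 130, 206 and 315 in MCD females. Within control males, r between the log2 globin sum and log2 of Alas2 (CPM + 0.1) was -0.23 and rho 0.02, over 12 libraries (permutation p = 0.473 and 0.955, adjusted over the 16 relations 0.582 and 0.955). Within MCD males r was 0.05 and rho -0.08 (permutation p = 0.877 and 0.802, adjusted p = 0.877 and 0.917). Without the 2 farthest libraries r was 0.18 in control males and -0.05 in MCD males. Among the 6 females of a diet r was 0.35 on control and 0.33 on MCD (exact permutation p = 0.472 and 0.542, adjusted p = 0.582 and 0.619), and -0.75 and -0.02 without the 2 farthest libraries. After subtraction of groups and sex, Alas2 had correlations of -0.18 to -0.11 with the 4 globins over the 36 libraries.

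**Figure D4:**
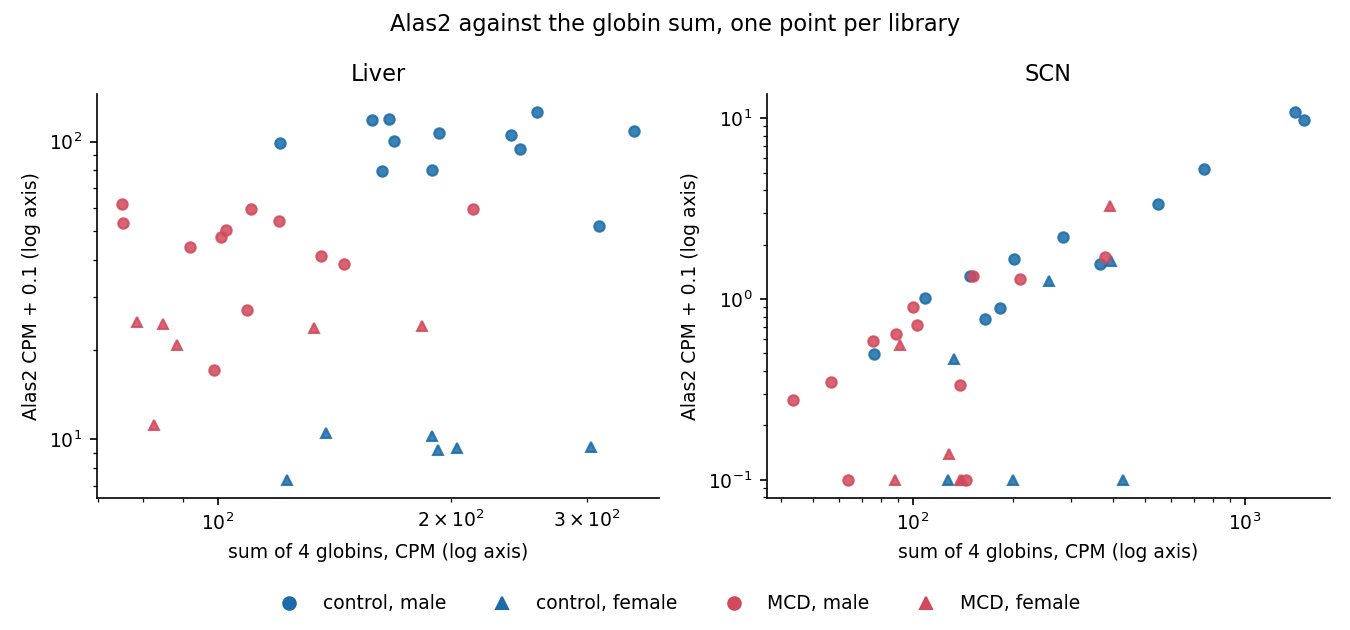
Alas2, as CPM + 0.1, against the sum of the 4 globins in each library of liver and SCN, in TMM-scaled CPM on log axes. In liver the points of control females lie at 7.21 to 10.4 on the Alas2 axis within the globin range of the control males, and in SCN Alas2 is at most 10.7.

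Levels between genes were compared per kb of exonic length. In control male livers Hbb-bs was at 101 ± 30.1 CPM per kb (SD, n = 12), Hba-a2 at 67.7 ± 23.8, Hba-a1 at 66.9 ± 21.9, Hbb-bt at 50.5 ± 16.7 and Alas2 at 41.2 ± 8.50 CPM per kb. Hba-a2 and Hba-a1 differed by less than the SD of either, as did Hba-a1 and Hbb-bt, and Hbb-bt and Alas2 differed by less than the SD of Hbb-bt but by more than that of Alas2. In control male SCN the order was the same, with Hbb-bs at 226, Hba-a2 at 163, Hba-a1 at 156 and Hbb-bt at 99.8 CPM per kb, and Alas2 at 1.32 ± 1.48 CPM per kb. In both tissues the place of a copy relative to its near-identical partner depends on how reads were shared between them, which is not stated. Each tissue was scaled on its own. Alas2 relative to the globins of the same library needs no scaling: its median was 4.43 counts per 1000 globin counts over the 36 SCN libraries, with a highest value of 8.42, below the lowest liver value of 30.8.

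Few other red cell genes were listed in liver. By diet, 25.3% of all genes were called higher and 21.2% lower, and the counts of the gene lists stand against these shares. Of 14 genes of the red cell membrane and erythroid factors, 4 were in the liver table, and Slc4a1, the anion exchanger of the red cell membrane, was listed at 0 in 12 control and 17 MCD libraries, with a highest value of 0.193 CPM. Klf1, the erythroid factor that binds CACCC boxes of the beta globin promoter, fell from 3.62 ± 1.79 to 1.47 ± 0.54 CPM (SD, n = 18 each; log2 difference -1.30 ± 0.18, edgeR adjusted p = 2.24e-06). Klf1 was lower on MCD in both sexes, with log2 differences of -1.04 in males and -1.82 in females. Epor, the erythropoietin receptor, was at 1.63 ± 0.48 and 1.62 ± 0.54 CPM and did not pass in the diet comparison (edgeR adjusted p = 0.998) and was higher in females by 0.60 ± 0.13 (edgeR adjusted p = 0.00343). In the list, 1 of 3 genes tested was called, Klf1. The list median of -1.30, against 0.02 for all genes, is the value of Klf1 itself and does not describe the list.

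Among 7 genes that reticulocytes share with other cells, 2 rose and 2 fell, with a median log2 difference of 0.17; 4 of 7 called is near the share of all genes called in this comparison, 46.6%. Bpgm, which makes the red cell effector of oxygen release, rose by 0.18 ± 0.06 (edgeR adjusted p = 0.00956), and Bnip3l, which clears mitochondria from maturing red cells, fell by 0.25 on the log2 scale (edgeR adjusted p = 1.51e-04). Mkrn1 was also called, higher by 0.17. Tfrc, the transferrin receptor, had a difference of 0.31 ± 0.16 that did not pass (edgeR adjusted p = 0.113). Of 8 genes of heme synthesis, Ppox fell by 0.45 and Urod by 0.33 on the log2 scale, none rose, and the median was -0.02. Alas1 was at 345 ± 376 CPM on control and 449 ± 410 CPM on MCD (log2 difference 0.44 ± 0.21, edgeR adjusted p = 0.0789). The diet effect on Alas1 was 0.80 ± 0.22 in males (edgeR adjusted p = 0.00583) and -0.28 ± 0.32 in females (edgeR adjusted p = 0.587), and the sex-by-diet term, -1.08 ± 0.39, was not called (edgeR adjusted p = 0.204).

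Of 8 genes of hemoglobin and heme clearance tested, 6 rose and 1 fell, with a median log2 difference of 0.61, against 25.3% of all genes called higher, 21.2% called lower and a median of 0.02. Hp, the plasma protein that binds free hemoglobin, rose from 1535 ± 315 to 2424 ± 459 CPM (SD, n = 18 each; log2 difference 0.66 ± 0.07, edgeR adjusted p = 1.65e-08). Hpx, which binds free heme, rose by 0.73 ± 0.09 and Hmox1, which breaks heme down, by 1.00 ± 0.17 (edgeR adjusted p = 2.17e-07 and 2.73e-05). Spic, a transcription factor of macrophages that recycle red cell iron, rose by 0.69 ± 0.14 (edgeR adjusted p = 2.88e-04). The gene that fell was Blvra, a biliverdin reductase, by 0.22 on the log2 scale. Hp and Hpx are also acute-phase proteins made by hepatocytes.

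Markers of other blood and vessel cells did not share one direction. The 6 neutrophil genes tested all rose (median log2 difference 2.25), and their summed level was 1.30 to 7.65 CPM on control and 3.37 to 25.6 CPM on MCD, with Csf3r the largest at 2.67 and 5.05 CPM on average. None of 11 lymphocyte genes was called (summed 5.55 to 31.3 and 6.80 to 28.3 CPM). Of 5 hepatocyte genes 1 rose (Ahsg) and 2 fell (Cps1 and Fgb). Of 6 platelet genes 1 was called, Gp1bb, at 0.117 CPM on control, and of 10 endothelial genes 1 rose (Pecam1) and 2 fell (Cldn5 and Flt1), with summed levels of 186 to 269 and 204 to 268 CPM. The part of blood or vessel content in the globin difference was not tested.

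Liver libraries also fell into a low and a high kind by the level of mt-Nd6, a mitochondrial transcript, with 8 control and 13 MCD libraries of the low kind and 10 and 5 of the high kind. Within the low kind the mean of Hbb-bs was 85.1 ± 26.1 CPM on control and 40.4 ± 15.1 CPM on MCD. Within the high kind it was 68.8 ± 17.0 and 37.0 ± 9.35 CPM. With a term for the kind, the log2 differences of the 4 globins were -0.86 to -1.03 with edgeR adjusted p of 4.12e-05 or less, and the sex-by-diet term of Alas2 was 2.32.

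In SCN, globin levels were more variable than in liver, and the lower level on MCD did not pass the test. Hbb-bs was at 27.1, 86.5 and 555 CPM on control (lowest, median and highest of 18) and at 14.7, 39.6 and 149 CPM on MCD. Hba-a1 was at 20.8, 58.1 and 393 CPM on control and at 12.4, 30.5 and 103 CPM on MCD. The ranges overlapped, since 3 MCD libraries for Hbb-bs and 4 for Hba-a1 lay below the control range and none above it.

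The log2 differences of MCD minus control were -1.38 ± 0.32 for Hba-a1, -1.40 ± 0.32 for Hba-a2, -1.45 ± 0.31 for Hbb-bs and -1.47 ± 0.30 for Hbb-bt. Their edgeR adjusted p were 0.119, 0.104, 0.0879 and 0.0712, so 0 of 5 members were called, against 0.0635% of the 15759 genes tested. All 5 had an unadjusted p under 0.05, against 4.73% of all genes, and DESeq2, which called 0.305% of all genes, called the 4 globins. At single times none of the members passed with edgeR, against 0.0444% of all genes at CT4, 0.00635% at CT0, CT16 and CT20 and 0% at CT8 and CT12. An unadjusted p under 0.05 was met by 5 members at CT0 and 4 at CT16, against 4.74% and 1.97% of all genes. DESeq2 called 2 members at CT0, Hbb-bs and Hbb-bt, against 0.184% of all genes, and none at the other times. The globins had log2 differences of -2.73 to -2.89 at CT0, -2.23 to -2.48 at CT16 and -0.55 to -1.38 at the other times, and the MCD mean over both sexes was the lower one at 6 of 6 times. In males it was the lower one at 6 of 6 times for each globin, and in females the MCD library was the lower one at 3 times for Hba-a1, 4 for Hba-a2 and Hbb-bt and 5 for Hbb-bs. The log2 differences of the globins were -1.63 to -1.70 with SE of 0.38 to 0.40 in males and -0.87 to -1.03 with SE of 0.54 to 0.56 in females. None of the members was called by edgeR in either sex, against 0.0317% and 0% of all genes, and an unadjusted p under 0.05 was met by 5 members in males and 0 in females, against 4.07% and 6.41% of all genes. The sex-by-diet term of the globins, 0.63 to 0.77 with SE of 0.66 to 0.70, was not called. Leaving out the control CT0 replicate 3 also brought the 4 globins past the threshold with edgeR, and leaving out the control CT16 replicate 3 brought 2 past it.

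The SCN difference rested in part on a few libraries. The sum of the 4 globins was at 76.2, 229 and 1508 CPM on control and at 43.4, 116 and 392 CPM on MCD. The 4 highest libraries were all control males: CT16 replicate 2 at 1508 CPM, CT0 replicate 1 at 1412, CT20 replicate 1 at 754 and CT16 replicate 1 at 546 CPM. The other 32 were at 430 CPM or less. Without the highest 2, a choice made after seeing the data, the log2 differences of the globins were -0.99 to -1.10 and none was called (edgeR adjusted p = 0.227 to 0.385). In those 4 libraries, in the same order, the summed level of SCN neuron genes was 1658, 2351, 1809 and 1915 CPM. The median over the 18 control libraries, which include them, was 2356 CPM. That median covers all times, and the levels were not compared within a time. The control CT20 replicate 3, next in globin level, was at 1742 CPM. The summed endothelial level was 91.2, 118, 134 and 110.4 CPM, and the one at 134 CPM was the highest of the control libraries. The part of the tissue pieces' make-up and of blood left in them was not tested.

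**Figure D5:**
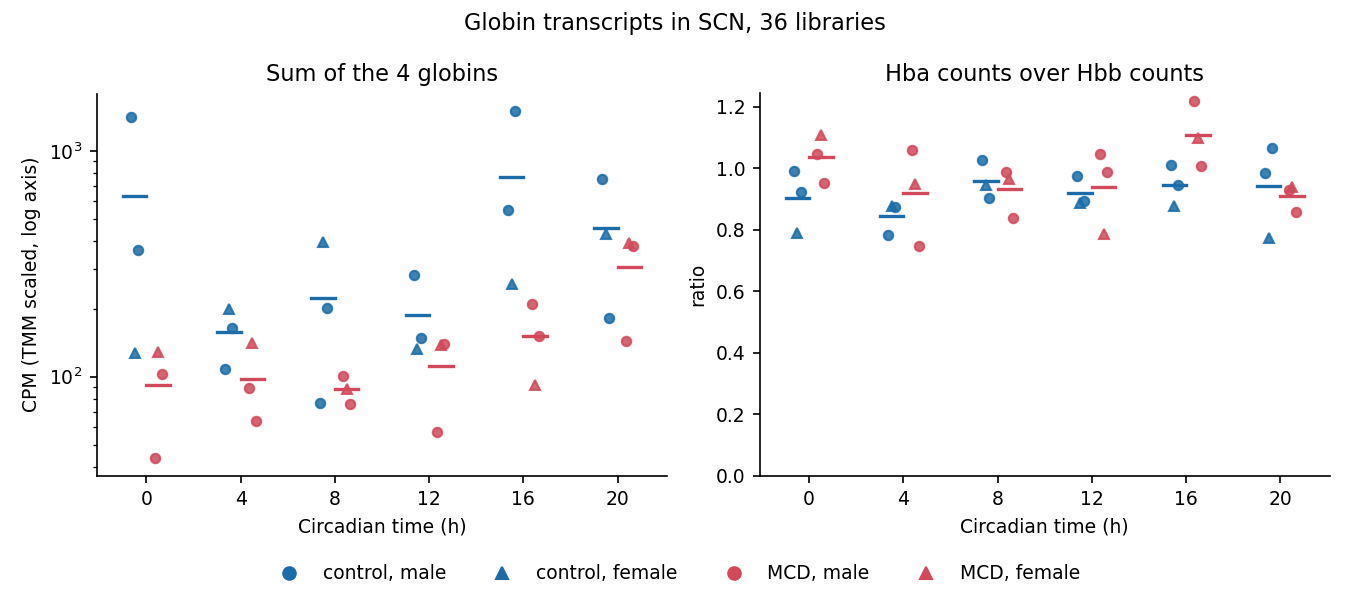
Sum of the 4 globins in TMM-scaled CPM (left, log axis) and ratio of alpha to beta counts (right, linear axis from 0) in the 36 SCN libraries, by circadian time in hours. Points are libraries by diet and sex and lines are means of the 3 libraries of a group; 2 control male libraries, at CT0 and CT16, stand above the others in the sum, and the ratios of the diets overlap.

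The 4 SCN globins moved together. The alpha and beta sums had r = 0.99 and rho = 0.98 over the 36 libraries (permutation p = 1e-05 for each), and r was 0.99 within control, 0.98 within MCD and 0.99 without the 2 farthest libraries. Correlations among the 4 genes after subtraction of groups and sex were 0.98 to 1.00. The spread left was 0.92 to 0.96 log2 units, larger than in 92.0% to 93.0% of SCN genes. Of the 8 ratios tested, none of the 4 in SCN passed. The alpha to beta ratio there had geometric means of 0.914 and 0.967 (permutation p = 0.129, adjusted p = 0.514).

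On the control diet the SCN globins had a 24 h component with log2 peak-to-trough amplitudes of 2.04 to 2.09, and edgeR adjusted p of 0.0623 to 0.0761. None of the members was called, against 15.1% of all genes, while 4 of 5 had an unadjusted p under 0.05, against 28.8% of all genes, and DESeq2, which called 18.5% of all genes, called the 4 globins. On that diet the group sums at CT0, CT16 and CT20, at means of 635, 770 and 455 CPM, held the 4 highest libraries, and those at CT4, CT8 and CT12 had means of 157, 224 and 188 CPM. On MCD the amplitudes of the globins were 1.35 to 1.49 with no call, against 16.1% of all genes, and the CT20 group had the highest mean sum, 305 ± 140 CPM (SD, n = 3). The rhythm did not pass a test of a difference between the diets for any member (edgeR, 0.0127% of all genes called).

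Alas2 was scarce in SCN, with 0 to 10.7 CPM and a median of 0.647 CPM. It was listed at 0 in 8 libraries, 3 control and 5 MCD, of which 6 were female; in 6 of these 8 the exon-bin files held 2 to 30 counts for it, so the 0 of the gene table is not an absence of reads. Control males were at 0.396, 1.51 and 10.7 CPM and control females at 0, 0.184 and 1.51 CPM. The log2 difference of females minus males was -2.38 ± 0.85 (edgeR adjusted p = 0.0728; 9.89% of all genes called, 0 members), with an unadjusted p of 0.00917, and DESeq2 called it. So did edgeR in 3 fits that left out 1 library each, the control CT8 replicate 3, the MCD CT20 replicate 1 or the MCD CT20 replicate 3. With exon-bin sums the difference was -1.09 ± 0.54 (edgeR adjusted p = 0.246), and limma-voom gave -2.37 with an adjusted p of 0.18. The diet difference was -1.89 ± 0.63 (edgeR adjusted p = 0.565), and ran from -2.94 without the MCD CT4 replicate 1 to -1.50 without the control CT0 replicate 1. The sex-by-diet term, 1.02 ± 1.74, did not pass in an edgeR comparison in which 0% of all genes were called and 826 had an unadjusted p under 0.05. Fitted values of a gene at 0 in some libraries depend on the prior count.

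In SCN, Alas2 moved with the globins. Over 36 libraries the log2 globin sum and log2 Alas2 had r = 0.67 and rho = 0.65 (permutation p = 1e-05 and 3e-05, adjusted p = 2.29e-05 and 6.86e-05), and r = 0.53 without the 2 farthest libraries. Within control r was 0.66 (permutation p = 0.0032, adjusted p = 0.0057) and within MCD 0.49 (permutation p = 0.0388, adjusted p = 0.0622). Without the 2 farthest libraries, r was 0.43 within control and 0.11 within MCD, so the relation within a diet rests in part on those libraries. The difference of the correlations between tissues was not tested.

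No gene of the 14 of the red cell membrane and erythroid factors was in the SCN table. By diet, 0.0635% of all genes tested in SCN were called, so lists of this size are of little weight. None of the 7 shared reticulocyte genes, the 8 heme synthesis genes and the 5 clearance genes tested was called, with medians of -0.02, 0.00 and -0.08. Neither were the 10 endothelial genes (median 0.00), whose summed level was 77.9 to 134 CPM on control and 82.9 to 134 CPM on MCD.

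The diet effects of the tissues were compared in a joint model of the 72 libraries in which tissues of a mouse are not linked. For the globins the SCN minus liver differences were log2 values of -0.50 to -0.62 with SE of 0.33 to 0.34, and none was called (edgeR adjusted p = 0.16 to 0.256), against 34.7% of the 14491 genes tested. Without replicate 1 the differences were -0.060 for Hba-a1, -0.091 for Hba-a2, -0.044 for Hbb-bt and 0.060 for Hbb-bs, with edgeR adjusted p of 0.918 to 0.977. For Alas2 the difference was -1.52 ± 0.58 (edgeR adjusted p = 0.0346), in a model without a sex-by-diet term. DESeq2 and limma-voom did not call it, nor did edgeR without replicate 1, 2 or 3.

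The labels do not say whether a liver and an SCN library of the same group and number came from 1 mouse. Over 34 such pairs the log2 globin sums had r = 0.49 and rho = 0.46 (permutation p = 0.00317 and 0.00722, adjusted p = 0.00571 and 0.0128), and r = 0.34 without the 2 farthest. Within control r was 0.32 (16 pairs, permutation p = 0.232) and within MCD -0.06 (18 pairs, permutation p = 0.828), so the relation over both diets did not hold within a diet.

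The genes most like the globins were described by the correlation of log2 CPM over 36 libraries, among genes of at least 1 CPM on average, with no test. In liver these were Clec11a (r = 0.70), a growth factor first described for blood progenitors, followed by Cmtm6, Pglyrp2, Romo1, Cpsf1, Qsox1, Itih1, Tead3, Ppox and Lrsam1, and after subtraction of groups and sex B4galt3 led with r = 0.72. In SCN Fdps led with r = 0.63, and Gtdc1 with 0.72 after the subtraction. After the subtraction, the lowest correlation among the globins themselves was 0.84 in liver and 0.98 in SCN, above B4galt3 and Gtdc1. Before it, the alpha and beta sums had r = 0.98 in liver and 0.99 in SCN. For Alas2 in liver, likeness was looked up after its values were seen: Cyp2d9 (r = 0.97), Mup20 (0.96), Cyp2d12 (0.94) and Cyp4a12b (0.93) led, and after subtraction of groups and sex Cyp2d9 (0.88), Ghr (0.87) and Cyp2d12 (0.87). The Cyp genes encode cytochromes P450, Mup20 a major urinary protein and Ghr the growth hormone receptor. These libraries share depth, scaling and the sex labels.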

How the data were processed

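The deposited values are raw counts: a gene table for each tissue and an exon-bin file for each library, neither of them normalized, per the file headers. The submitters' processing notes name Trimmomatic, HISAT2, StringTie, DESeq2 and build GRCm39; how reads were counted is not given there. Of the columns of each table, 2 control males at CT8 share a name and were used without a number. The exon-bin files of 2 liver libraries end early and were left out of exon-bin fits.

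Genes were tested per tissue with the edgeR 4.0.16 quasi-likelihood test in R 4.3.3 (TMM, minimum count 10, robust; 12 groups and sex; Benjamini-Hochberg over all genes; threshold 0.05). Sex-by-diet and tissue differences came from models with those terms. DESeq2 1.42.0 and limma-voom (limma 3.58.1) were alternatives, as were other scalings, no filter, exon-bin sums, a replicate block and left-out libraries. The fits were tested on simulated data. Ratios were log2 of counts + 1. All 5 members are named in every comparison, and of each gene list up to 4 genes of at least 1 CPM with the largest changes; Slc4a1 and Gp1bb, below 1 CPM, Blvra and the genes most like Alas2 were named after their values were seen. The values of 1 gene called are not reported here. The members and the lists were chosen with earlier results of these data known.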

Additional observations from a re-analysis of the deposited data

Results flagged for a closer look

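Within the 6 female libraries of a diet and tissue, a library was set apart when its gap to the nearest other one took more than the 95% critical share of the range. This was tested in 24 groups of values and met in 7, and chance alone would set apart about 1 in 20. In SCN, the MCD female at CT20 was the high one for all 5 genes: Hba-a1 at 103 CPM (others 24.0 to 37.3), Hba-a2 at 87.0 (19.4 to 33.2), Hbb-bs at 149 (29.3 to 54.3), Hbb-bt at 53.4 (10.9 to 23.5) and Alas2 at 3.19 (0 to 0.459). Its globin sum was 392 CPM (others 88.3 to 141), and a male of the same group was at 380 CPM. These 6 values come from 1 library and are not independent. In liver, Alas2 in the MCD female at CT8 was at 11.1 CPM, against 20.7 to 24.8 CPM in the other MCD females and up to 10.4 CPM in control females.

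The diet effect on liver Alas2 differed between the sexes, by a log2 value of 2.32 for females minus males. The diet effect on Alas2 also differed between the tissues, by -1.52 for SCN minus liver. DESeq2 and limma-voom did not make this call, nor did edgeR without replicate 1, 2 or 3. The model holds no sex-by-diet term, while the liver effect was -1.11 in males and 1.20 in females.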

How the results depend on the processing

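Of 338 alternative counts of called members, 312 stayed within 1.5 times the main count or at 0, and of 1159 alternative values of single members, 1074 kept their direction and their side of the threshold. The liver diet effect called 3 to 5 members over 10 settings and 4 without each of the 36 libraries. Single liver times called 4 member-time pairs, 9 with DESeq2, 1 with library totals, 1 with exon-bin sums and 0 to 5 with libraries left out. The liver sex-by-diet count was 0 to 1 with replicates left out. The SCN diet effect called 0, 4 with DESeq2 and 0 to 4 without single libraries, and single SCN times 2 with DESeq2. The SCN rhythm on control called 0, 4 with DESeq2, 2 with exon-bin sums and 0 to 2 with replicates left out, and that on MCD 0 to 1. The SCN sex difference called 0, 1 with DESeq2 and 0 to 1 without single libraries. The liver ratio count fell from 1 to 0 with exon-bin sums, and the tissue difference from 1 to 0 with DESeq2, with limma-voom and without each replicate number. The cause was not tested, beyond the fewer libraries of the last. Alas2 in the liver diet effect ran from -1.13 to 0.11 with replicate numbers left out, and Hbb-bs in the tissue difference from -0.66 to 0.060, the latter without replicate 1.

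Same-numbered libraries did not deviate together (median correlations of residuals from -0.12 to -0.00), so the replicate numbers were not taken as pairs. With the replicate block in place of sex, the SCN sex difference called 1 member, Alas2, the liver diet effect called 4, and Hbb-bt did not pass in females (adjusted p = 0.0509). Depth limits Alas2 in SCN, at a median under 1 CPM.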
